A study of Homo sapiens with 5 samples.

Results

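A panel of 10 genes for surface proteins of blood progenitors and leukemic cells was followed through the RNA-seq counts of TF-1 cells, a human AML cell line that grows in GM-CSF. The panel was taken as a list of names (*CD34*, *CD33*, *CD38*, *CD44*, *CD47*, *CD36*, *SPN*, *PECAM1*, *PROM1*, and *ENG*). Of these, 9 were measured among the 27328 genes of the table, all 9 were among the 14391 genes that passed the filter on low counts, and *PROM1* was not analysed here. The 5 libraries came from 2 control pools, whose sgRNA targets the *renilla luciferase* gene (sgCtrl 1 and 2), and 3 *MTSS1* knockout pools, each with its own sgRNA (sgMTSS1_1, sgMTSS1_2, and sgMTSS1_3). Each pool joined 4 clones grown from single cells. All cells of both groups had been transduced with a lentiviral vector for Cas9 and GFP, were sorted for GFP, and were kept in GM-CSF. A knockout pool therefore stands for 4 clones of 1 guide, and the spread between pools contains the spread between clones. The comparison asks whether loss of *MTSS1* goes along with another level of these markers.

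Surface proteins of this kind are used to sort and stage hematopoietic cells. CD34 marks stem and progenitor cells, CD38 appears on progenitors as they leave the most primitive state, and CD33 is a myeloid sialic acid-binding lectin that serves as a drug target in AML. CD44, CD43 (the product of *SPN*), and CD31 (*PECAM1*) take part in adhesion, CD47 signals to phagocytes, CD105 (*ENG*) is a TGF-beta co-receptor, and CD36 is a scavenger receptor found on monocytes, platelets, and early erythroid cells. Abundance of an mRNA is not the same as the amount of protein on the cell surface, which was not measured in these libraries.

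Libraries held between 2849979 and 3408827 counts in the control and between 5442639 and 8854899 counts in the knockout group, so depth and condition cannot be told apart. Levels are given as CPM, counts brought to a common library size by total count and TMM factor. Since the reads come from the 3′ ends of transcripts, a CPM here follows the number of mRNA molecules, without division by length, and levels of different genes are compared on that scale. The floor of 3 counts corresponded to between 0.389 and 0.938 CPM. Mitochondrially encoded genes took 13.9% and 8.63% of counts in the control and 6.71% to 7.44% in the knockout libraries. Ribosomal protein genes took 7.55% and 9.3% in the control and 11.9% to 17.7% in the knockout libraries. The *MTSS1* mRNA itself was at 204 and 87.9 CPM in the control pools and at 104, 139, and 49.9 CPM in the knockout pools, with overlapping groups, so it could not serve to check the library labels. The study selected the clones by immunoblot. Of the 12 genes taken as defining TF-1 cells, among them *CSF2RA*, *CSF2RB*, *IL3RA*, *KIT*, *GATA1*, and *TAL1*, all 12 passed the filter. Their summed level was between 1926 and 2477 CPM in the 5 libraries. Its largest parts were *SPN* (716 to 1039 CPM), a gene of the panel, and *PTPRC* (363 to 501 CPM). The sum therefore says little about the less abundant genes of this list.

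The panel was expressed at different levels that kept much of their order in every pool. *SPN* ranked first in all 5 libraries, with 868 ± 212 CPM (SD, n = 2) across the control pools and 901 ± 166 CPM (SD, n = 3) across the knockout pools, a level above that of 99.2% of all tested genes. It took between 45.3% and 61.7% of the counts of the panel. In control pools, *CD33* (130 ± 11.1 CPM), *PECAM1* (130 ± 19.7 CPM), and *CD34* (122 ± 13.9 CPM) followed closely, and their ranges overlapped. *CD44* (68.8 ± 27.4 CPM), *CD38* (61.4 ± 17.3 CPM), and *CD47* (58.5 ± 5.22 CPM) formed a lower group whose ranges also overlapped. *ENG* (40.0 ± 0.0627 CPM) and *CD36* (37.9 ± 35.0 CPM) were lowest, the former below *CD47* in both control pools. In knockout pools, *CD34* and *PECAM1* ranked next after *SPN* with overlapping ranges, and both were above *CD33* in all 3 pools. *ENG* and *CD36* were again lowest, below *CD47* in each knockout pool.

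**Figure D1:**
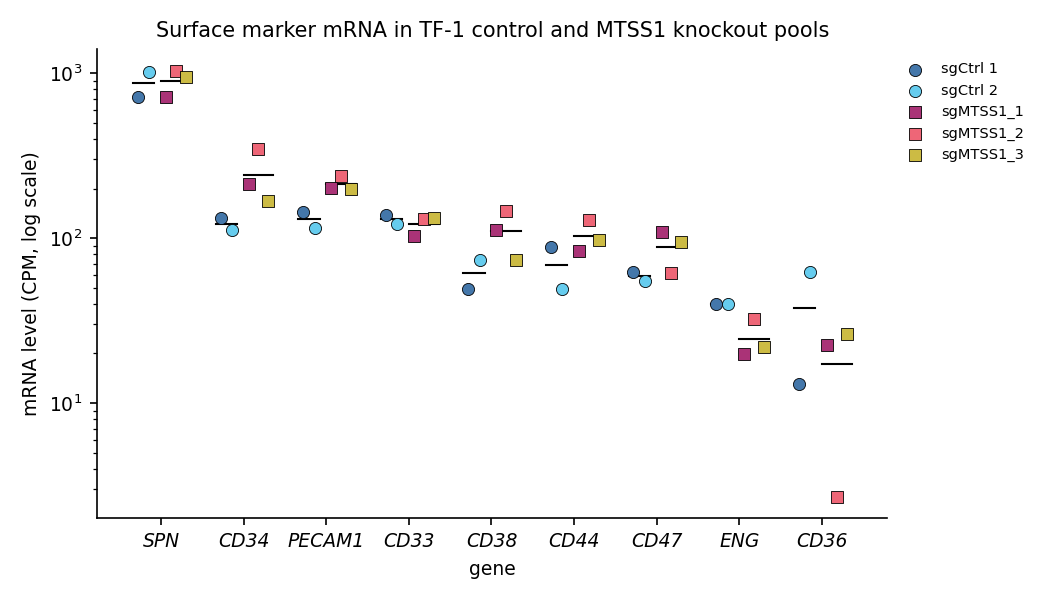
mRNA levels of the 9 measured surface markers, as CPM on a log scale, with 1 point for each pool (circles, control; squares, knockout) and a line at each group mean. *SPN* is highest in all 5 pools, the knockout pools lie above both control pools for *CD34*, *CD38*, and *PECAM1* and below them for *ENG*, and *CD36* spreads from 2.71 to 62.6 CPM.

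No marker of the panel was differentially expressed between knockout and control pools when an adjusted p-value under 0.05 was asked for together with a log2-fold change beyond 1 in either direction. Adjusted p-values are those of edgeR's quasi-likelihood test after Benjamini-Hochberg adjustment over all tested genes, unless another test is named. These thresholds were passed by 5.18% of all tested genes, 4.17% with a higher and 1.01% with a lower level in the knockout, and the adjusted p-value alone by the same 5.18%. Before adjustment, 3 of the 9 markers had a p-value under 0.05 by edgeR (*CD34*, *CD38*, and *PECAM1*), as did 23.3% of all tested genes. With DESeq2, 0 of the 9 were called and the same 3 had an unadjusted p-value under 0.05. With limma-voom, 0 were called and *ENG* joined these 3. Every knockout pool lay above both control pools for 3 of the 9 markers, where this held for 22.2% of all tested genes, and below both for 1 of 9, where this held for 19.2%. The 9 markers had a median log2-fold change of 0.59 and all tested genes one of −0.03, and 6 of the 9 values were positive. A replicate is a pool. The p-values set the difference between groups against the spread between pools, which edgeR estimates for each gene with help from other genes. Each knockout pool has its own sgRNA, whereas the control pools share 1, so differences between guides enter only the spread of the knockout group. The study had set aside another control pool and another knockout pool by an outlier test on principal components, so the spread is that of the pools kept after this step.

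*CD34*, which encodes a sialomucin of stem and progenitor cells, had the largest positive log2-fold change of the panel. Its gene (ENSG00000174059) spans bases 207880972 to 207911402 of chromosome 1 (GRCh38, minus strand). It was at 132 and 112 CPM in the sgCtrl 1 and sgCtrl 2 pools, and at 214 (sgMTSS1_1), 345 (sgMTSS1_2), and 168 CPM (sgMTSS1_3) in the knockout pools. All 3 knockout pools were thus above both control pools, the sgMTSS1_2 pool by far the most. The 95% Poisson intervals, which cover counting error only, were 120 to 145 CPM for the higher control and 158 to 179 CPM for the lowest knockout pool. The fit gave 1.98-fold more *CD34* mRNA in the knockout (95% interval 1.12 to 3.52), and the log2-fold change was 0.99 (SE 0.37, with an adjusted p of 0.148). In a pool of clones, a larger share of cells with the mRNA and more mRNA in each cell cannot be told apart. Without the sgMTSS1_2 pool the log2-fold change was 0.69 (adjusted p of 0.344).

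*CD38*, an ectoenzyme that consumes NAD, was at 49.1 and 73.6 CPM in the control pools and at 111, 146, and 73.9 CPM in the knockout pools. The groups were separate only by the small gap between sgCtrl 2 and sgMTSS1_3, whose 95% Poisson intervals of 64.7 to 83.4 and 67.1 to 81.3 CPM overlapped. The log2-fold change was 0.85 (SE 0.37, with an adjusted p of 0.203), or 1.80-fold with a 95% interval of 1.02 to 3.19. *CD38* (ENSG00000004468) lies on chromosome 4 from 15778275 to 15853232 on the plus strand. Its paralog *BST1*, another NAD-consuming ectoenzyme, was at 1.56 and 1.19 CPM in control and 2.98, 3.97, and 2.96 CPM in knockout pools, with an adjusted p-value of 0.231. In control libraries *BST1* rested on 5 and 4 counts, and it passed the filter on low counts only through the knockout pools. *NAMPT*, *NMNAT1*, and *NADK*, which make NAD and NADP, had log2-fold changes between −0.13 and 0.17 and overlapping groups.

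*PECAM1* encodes CD31, an adhesion molecule that binds itself and also CD38. It was at 144 and 116 CPM in the control pools and at 201, 238, and 199 CPM in the knockout pools. The knockout pools lay close together, the highest 1.20 times the lowest, and all were above both controls. The log2-fold change was 0.71 (SE 0.29, with an adjusted p of 0.184), or 1.64-fold with a 95% interval of 1.04 to 2.58. The gene (ENSG00000261371) lies on chromosome 17 from 64319415 to 64413776 on the minus strand. The biological coefficient of variation of *PECAM1*, edgeR's estimate of spread between pools of a group, was 25.7%, above that of only 9.79% of tested genes. This estimate is drawn toward that of other genes, so it is not the spread observed for *PECAM1* alone.

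**Figure D2:**
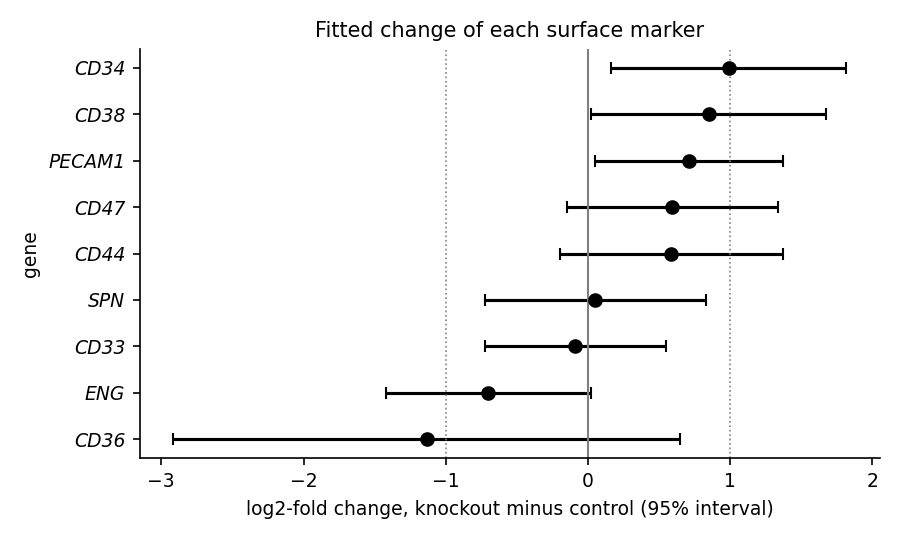
Log2-fold change of each marker, knockout minus control, from edgeR's fit over the 5 pools, with its 95% interval as a bar and dotted lines at −1 and 1. The intervals of *CD34*, *CD38*, and *PECAM1* lie above 0 before adjustment for multiple testing, and that of *CD36*, from −2.92 to 0.65, is the widest.

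*CD33*, *CD38*, and *CD44* were also compared with *CD34* as ratios of counts within a library, which do not depend on how libraries are scaled. The log2 ratio of *CD33* to *CD34* was 0.06 and 0.12 in the control pools, where both mRNAs were about equally abundant, and −1.05, −1.40, and −0.35 in the knockout pools. Each knockout pool had a lower ratio than either control, by 1.02 on average. The exact two-sided permutation test gave p = 0.2 (adjusted p = 0.6 over 3 ratios), which is the smallest p-value that 10 assignments of 5 libraries allow. The log2 ratio of *CD38* to *CD34* was −1.42 and −0.61 in control and −0.94, −1.24, and −1.18 in knockout pools. These groups overlapped, with a difference of −0.10 (p = 0.8, adjusted p = 0.8, exact permutation test), and the ratio turned to a difference of 0.30 without sgCtrl 2. The log2 ratio of *CD44* to *CD34* was −0.58 and −1.18 in control and −1.35, −1.43, and −0.78 in knockout pools, a difference of −0.30 (p = 0.4, adjusted p = 0.6, exact permutation test). That difference was −0.0041 without sgCtrl 1 and −0.60 without sgCtrl 2.

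**Figure D3:**
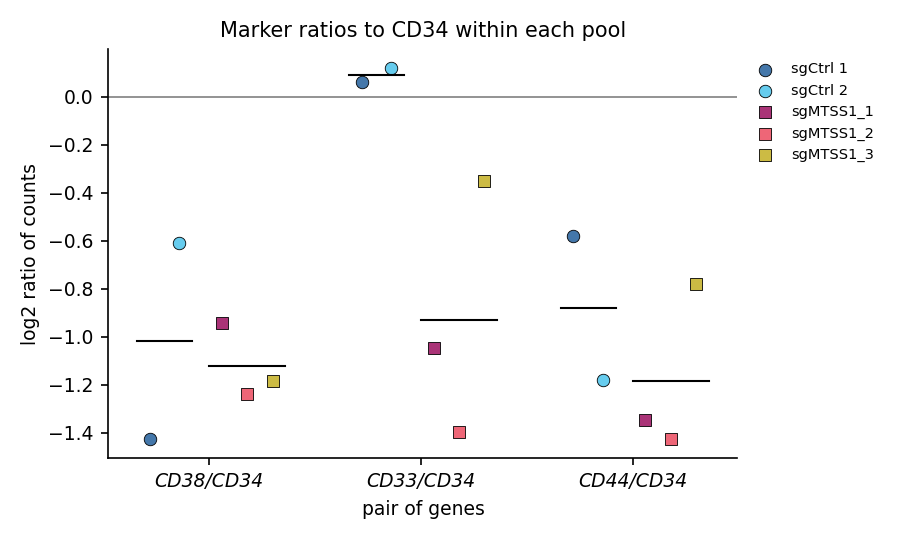
Log2 ratio of the counts of *CD38*, *CD33*, and *CD44* to those of *CD34* in each pool, with a line at each group mean. For *CD33*/*CD34* the control pools lie just above 0 and the knockout pools between −1.40 and −0.35, whereas the groups overlap for the other ratios.

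*CD33*, the myeloid lectin, varied little. It was at 138 and 122 CPM in the control pools and at 103, 131, and 132 CPM in the knockout pools, and the groups overlapped. The highest of the 5 pools was 1.33 times the lowest, the smallest span of the panel. The log2-fold change of −0.09 (SE 0.28, with an adjusted p of 0.885) has a 95% interval of 0.604 to 1.46 as a fold change, so that a change by a factor of 2 lies outside it. The gene (ENSG00000105383) lies on chromosome 19 from 51225064 to 51243860 on the plus strand. Among related lectins, *CD22* (log2-fold change 0.03), *SIGLEC6* (0.25), and *SIGLEC5* (−0.68) passed the filter on low counts and had overlapping groups. *PTPN6*, a phosphatase recruited by CD33 and PECAM1, was at 79.1 and 33.4 CPM in control and between 43.0 and 47.8 CPM in knockout pools. *PTPN11*, a phosphatase of the same family, had a log2-fold change of −0.29.

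*CD47*, the ligand that keeps phagocytes from engulfing a cell, was at 62.2 and 54.8 CPM in the control pools and at 109, 61.2, and 94.7 CPM in the knockout pools. The sgMTSS1_2 pool lay between the control pools, and the groups therefore overlapped. The log2-fold change was 0.59 (SE 0.33, with an adjusted p of 0.317). *CD47* (ENSG00000196776) lies on chromosome 3 from 108043091 to 108091862 on the minus strand. *SIRPA*, its receptor, was at low levels of 3.75 and 3.58 CPM in control and 8.82, 7.40, and 9.57 CPM in knockout pools. All 3 knockout pools were above both control pools, and the log2-fold change was 1.23 (SE 0.42), with an adjusted p-value of 0.123. In the control libraries *SIRPA* rested on 12 counts each. *THBS1*, a secreted ligand of both CD47 and CD36, was between 3.75 and 5.74 CPM in all 5 pools.

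*CD44*, the receptor for hyaluronan, was at 88.2 and 49.5 CPM in the control pools, a 1.78-fold difference, and at 84.1, 128, and 97.8 CPM in the knockout pools. The groups overlapped through the sgCtrl 1 pool. The log2-fold change was 0.59 (SE 0.35, with an adjusted p of 0.352), and it was 1.07 without sgCtrl 1 and 0.26 without sgCtrl 2. The gene (ENSG00000026508) spans chromosome 11 from 35138882 to 35232402 on the plus strand, with 35 distinct annotated transcript ends over 55292 bases, and a count for the whole gene does not tell its isoforms apart. *CD44-AS1*, on the opposite strand, covers an annotated end of *CD44* and had at most 8 counts in a library. On the same strand, between exons of *CD44*, lies the lncRNA ENSG00000251194 (35212550 to 35214007), whose 2 exons overlap 0 annotated *CD44* exons. This lncRNA, chosen after its values were seen, had 7 and 3 counts in the control and 78, 103, and 58 counts in the knockout pools. It rose by 3.05 on the log2 scale (SE 0.58, with an adjusted p of 0.0219), from 1.54 to 12.9 CPM on average. It passed the filter on low counts only through the knockout pools, so its adjusted p-value is not independent support for the rise. Without sgCtrl 2, sgMTSS1_1, or sgMTSS1_2, its adjusted p-value was 0.0521, 0.0682, and 0.0548. Whether its reads belong to the lncRNA or to unspliced or differently ended *CD44* transcripts cannot be told from gene counts.

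*SPN*, which encodes the sialomucin CD43 of the leukocyte surface, was at 718 and 1018 CPM in the control pools and at 716, 1039, and 946 CPM in the knockout pools. Both groups covered nearly the same range, and the log2-fold change was 0.05 (SE 0.35, with an adjusted p of 0.946) and a 95% interval of 0.606 to 1.77 as a fold change. *SPN* (ENSG00000197471) lies on chromosome 16 from 29662979 to 29670876 on the plus strand. It overlaps *QPRT* on that strand over 7598 bases, including an annotated end of an *SPN* transcript, so that reads could be divided between them. *QPRT* had 293 to 678 counts per library against 2298 to 5755 for *SPN*. The proteins that tie CD43 and CD44 to the actin cortex, encoded by *MSN*, *EZR*, and *RDX*, had overlapping groups, with log2-fold changes of 0.06, −0.40, and −0.04 and adjusted p-values of 0.936, 0.474, and 0.956. *MSN* was the most abundant of these, with 487 ± 113 CPM (SD, n = 2) for control and 508 ± 81.5 CPM (SD, n = 3) for knockout.

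*ENG*, the TGF-beta co-receptor, was the only marker with every knockout pool below both control pools. It was at 40.0 and 39.9 CPM in the control pools and at 19.7, 32.3, and 21.7 CPM in the knockout pools. The control pools were nearly equal, while the sgMTSS1_2 pool lay nearest to them. The 95% Poisson intervals of sgMTSS1_2 (27.8 to 37.4 CPM) and of both control pools (33.4 to 47.6 and 33.5 to 47.3 CPM) overlapped. The log2-fold change was −0.70 (SE 0.32, with an adjusted p of 0.225), or 0.614-fold with a 95% interval of 0.373 to 1.01. *ENG* (ENSG00000106991) lies on chromosome 9 from 127815013 to 127854658 on the minus strand. The lncRNA ENSG00000225032 on the opposite strand covers an annotated end of *ENG* and had at most 20 counts in a library. Of the receptors and mediators around *ENG*, *TGFBR1* was at 26.3 and 23.2 CPM in control and 12.6, 15.9, and 17.2 CPM in knockout pools, also below both controls in each pool (log2-fold change −0.70, adjusted p of 0.222). *TGFBR2* (log2-fold change 0.22) and the low *ACVRL1* (0.72, at most 24 counts) had overlapping groups. *BMPR2* (−0.75) and *SMAD5* (−0.21) lay below both controls in each knockout pool, with adjusted p-values of 0.274 and 0.692. Of the 9 tested receptors and mediators, 3 lay below both controls in each knockout pool, where this held for 19.2% of all tested genes, and 6 had overlapping groups, among them *TGFBR3* (0.48), *SMAD2* (0.14), *SMAD3* (−0.37), and *SMAD4* (−0.0055).

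*CD36*, the scavenger receptor, stood apart by its spread. It was at 13.1 and 62.6 CPM in the control pools and at 22.6, 2.71, and 26.3 CPM in the knockout pools. The control pools differed by 4.77-fold and the knockout pools by 9.70-fold, and the whole range of 23.1-fold was the widest of the panel. Its biological coefficient of variation, an estimate drawn toward that of other genes, was 60.9%, above that of 99.1% of tested genes. The same estimate was between 25.5% and 30.2% for the other 8 markers. Counting error does not reach that far, since the lowest pool, sgMTSS1_2, had 15 counts (95% Poisson interval 1.52 to 4.47 CPM) and sgCtrl 2 had 210 (54.4 to 71.6 CPM). The log2-fold change was −1.13 (SE 0.79, with an adjusted p of 0.428), the largest in size of the panel and past −1, but the groups overlapped and the value turned to 0.42 without sgCtrl 2. *CD36* (ENSG00000135218) spans chromosome 7 from 80369575 to 80679277 on the plus strand. *RHAG*, an erythroid surface gene, was at 38.8 and 13.7 CPM in control and 89.6, 22.9, and 50.5 CPM in knockout pools. For *RHAG*, sgMTSS1_2 was also the lowest knockout pool, while sgCtrl 2, the highest in *CD36*, was the lowest of all 5 pools. *SCARB1*, the receptor related to CD36, was at 9.38 and 8.05 CPM in control and 18.3, 28.3, and 25.0 CPM in knockout pools, with a log2-fold change of 1.45 and an adjusted p-value of 0.0522.

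**Figure D4:**
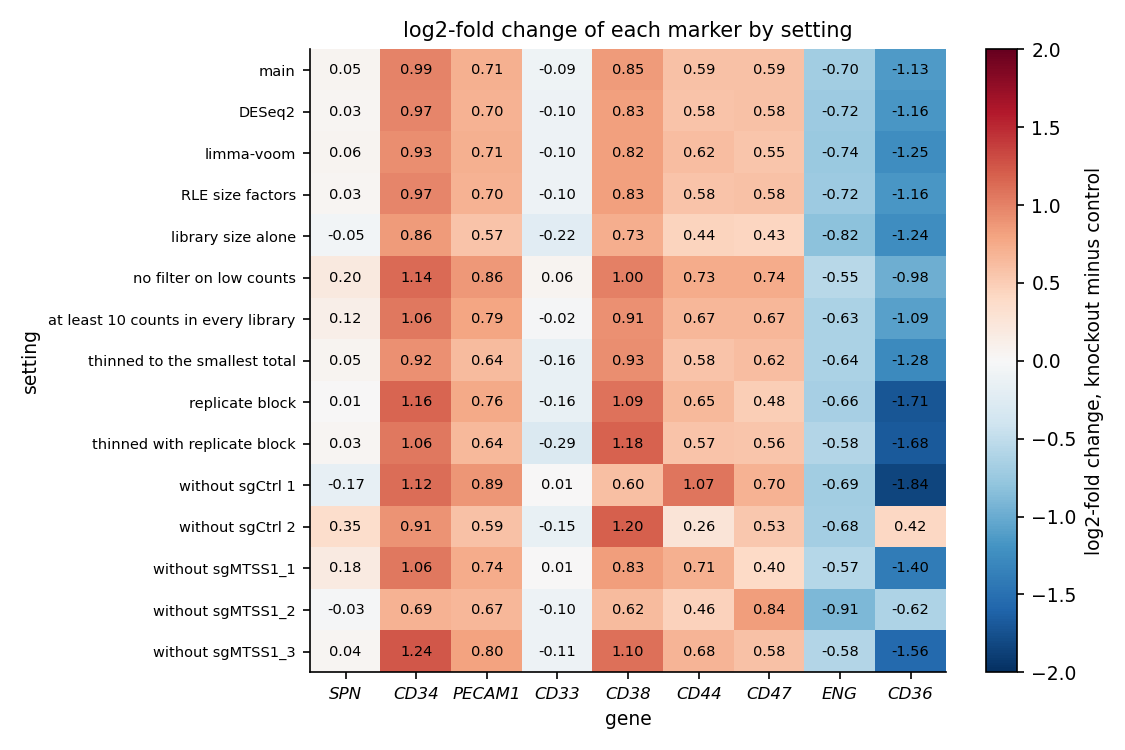
Log2-fold change of each marker, knockout minus control, in the fit reported here (top row, main) and under 14 other settings of test, scaling, filter, depth, pairing, or pools left out, in color and as numbers. *CD34*, *CD38*, *CD44*, *CD47*, and *PECAM1* are positive and *ENG* is negative in each row, and *CD36* turns from negative to 0.42 without sgCtrl 2.

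Direction was the same in the 14 other settings tried for 6 of the 9 markers. The log2-fold change ranged from 0.69 to 1.24 for *CD34*, from 0.60 to 1.20 for *CD38*, from 0.57 to 0.89 for *PECAM1*, from 0.40 to 0.84 for *CD47*, from 0.26 to 1.07 for *CD44*, and from −0.91 to −0.55 for *ENG*. In each setting, 0 of the 9 markers passed both thresholds. The lowest adjusted p-value of any marker was 0.0877, for *CD34* in edgeR's quasi-likelihood test with no filter on low counts, and the highest for *CD34* was 0.344.

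Lists of partners, relatives, and lineage markers put the panel in context. Across 94 tested genes of these lists outside the panel, 4 were called higher and 1 lower, or 5.32%, against 5.18% of all tested genes. Among 27 tested partners, 1 was called, and the median log2-fold change was −0.13. Every knockout pool lay below both controls for 9 of the 27, against 19.2% of all tested genes. For 2 of the 27 every knockout pool lay above both, against 22.2%. The called partner was *CD81*, a tetraspanin of the plasma membrane, at 295 and 221 CPM in control and 78.7, 111, and 112 CPM in knockout pools. *CD81* fell by 1.36 on the log2 scale (SE 0.31, with an adjusted p of 0.0364). Its adjusted p-value was 0.0256 without sgCtrl 2, but 0.0559 without sgCtrl 1, 0.11 without sgMTSS1_1, 0.101 without sgMTSS1_2, and 0.127 without sgMTSS1_3. Of the 5 called genes in these lists, 0 passed without sgMTSS1_1 or without sgMTSS1_3.

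Among 22 tested genes of other leukemia-associated surface proteins, the median was 0.07 and 1 was called, against 5.18% of all tested genes. The called gene was *CD63*, a tetraspanin of lysosomes and secretory granules that reaches the surface on degranulation. It was at 162 and 206 CPM in control and at 966, 564, and 659 CPM in knockout pools, so that it rose by 1.99 on the log2 scale (SE 0.37, with an adjusted p of 0.0215). *KIT*, the stem cell factor receptor, was at 44.7 and 41.7 CPM in control and 49.8, 69.3, and 93.3 CPM in knockout pools (adjusted p of 0.247). *IL3RA*, the interleukin-3 receptor chain that is often raised on leukemic stem cells, had a log2-fold change of 0.31 and overlapping groups. *ADGRG1*, an adhesion receptor of stem cells, had a log2-fold change of 2.16 at 2.09 to 19.8 CPM and an adjusted p-value of 0.0572. Among 9 tested relatives of the panel, 0 were called by edgeR's quasi-likelihood test. In that test 3 had an unadjusted p-value under 0.05, against 23.3% of all tested genes. DESeq2 called 1 of these 9 and limma-voom 0, against 1357 and 634 of all 14391 tested genes. *PODXL* and *PODXL2*, sialomucins of the CD34 family, had log2-fold changes of opposite sign. *PODXL* was at 2.81 and 5.07 CPM in control and 9.03 to 13.4 CPM in knockout pools (log2-fold change 1.51, adjusted p = 0.0826), whereas *PODXL2* was at 14.1 and 9.54 CPM in control and 5.32 to 6.61 CPM in knockout pools (−0.94, adjusted p = 0.177).

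**Figure D5:**
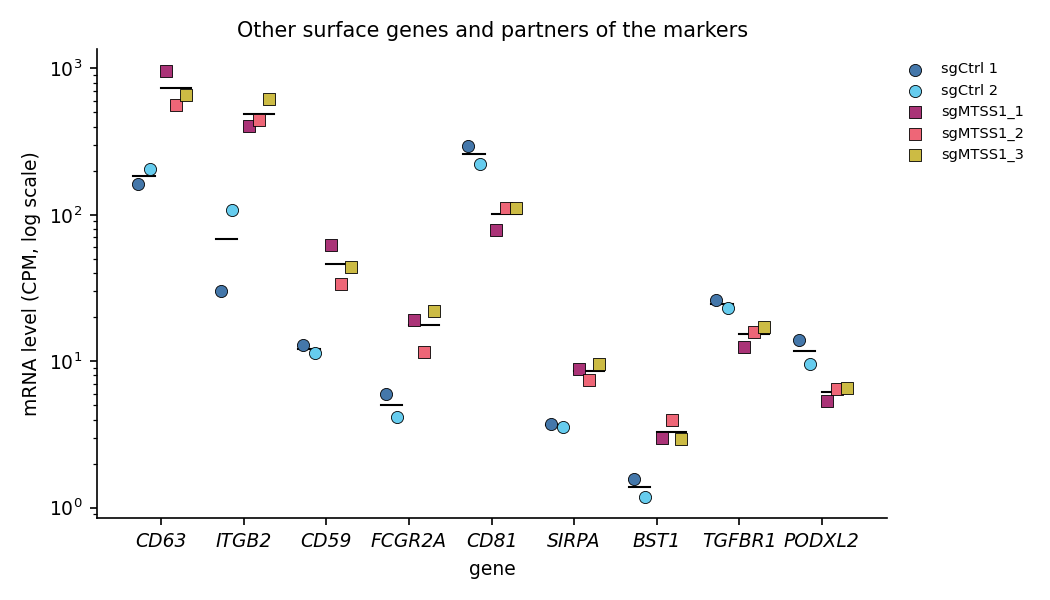
mRNA levels of 9 genes around the panel, as CPM on a log scale, with 1 point for each pool and a line at each group mean. *CD63*, *ITGB2*, *CD59*, and *FCGR2A* passed both thresholds as higher and *CD81* as lower in the knockout, while *SIRPA*, *BST1*, *TGFBR1*, and *PODXL2*, shown as partners or relatives of the markers, did not pass.

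Markers of other lineages gave a varied picture. Of 7 tested monocytic and granulocytic genes, 2 were called higher in the knockout, against 4.17% of all tested genes. *ITGB2*, the beta chain of the leukocyte integrins, was at 30.3 and 107 CPM in control and at 405, 445, and 617 CPM in knockout pools, and it rose by 2.83 on the log2 scale (SE 0.54, with an adjusted p of 0.0220). Its log2-fold change was 2.20 without sgCtrl 1 and 4.04 without sgCtrl 2, and its adjusted p-value was 0.0561 without sgMTSS1_2. *FCGR2A*, an Fc receptor, rose by 1.79 (SE 0.44, with an adjusted p of 0.0470), from 5.94 and 4.17 CPM to between 11.6 and 21.9 CPM. This call was lost in 10 of 14 alternatives, among them limma-voom (0.0738), the replicate block (0.0563), and the fits without sgCtrl 2 (0.106) or sgMTSS1_2 (0.0537), and its adjusted p-value ranged from 0.00952 to 0.186. The summed level of all 16 genes of that list in the table was 133 and 162 CPM in control and 523 to 746 CPM in knockout pools, most of the difference being *ITGB2*. The other 15 genes summed to 102 and 54.8 CPM in control and to 118, 123, and 128 CPM in knockout pools. *CD14*, *LYZ*, and *MPO* were near 0, with at most 1, 5, and 6 counts in any library. The 7 tested genes of that list had a median log2-fold change of 0.81. By edgeR, 4 had an unadjusted p-value under 0.05, against 23.3% of all tested genes. Every knockout pool lay above both controls for 4, against 22.2%. Besides the 2 called genes, these were *ITGAM* (log2-fold change 0.96, adjusted p = 0.179) and *ANPEP* (0.81, adjusted p = 0.180). *FUT4* (0.73), *ITGAX* (0.01), and *CD4* (−0.03) had overlapping groups. Of 13 tested erythroid surface genes, 1 was called, against 5.18% of all tested genes. The called gene was *CD59*, an inhibitor of complement found on most blood cells, which rose by 1.94 (SE 0.37, with an adjusted p of 0.0221). The summed erythroid level was 1108 and 1314 CPM in control and 1399 to 2528 CPM in knockout pools, most of it *TFRC* and *GYPC*. *TFRC* was at 611 and 638 CPM in control and 751 to 1538 CPM in knockout pools (adjusted p = 0.199). The 13 tested erythroid genes had a median log2-fold change of 0.60, with 11 of 13 positive, against a median of −0.03 for all tested genes. Summed lymphoid markers stayed at or below 25.6 CPM. Stromal, epithelial, and endothelial markers summed to 72.5 and 141 CPM in control and 151 to 164 CPM in knockout pools, most of it *KRT18*, and *COL1A1*, *EPCAM*, and *CDH1* had at most 4 counts. Of the 5 megakaryocytic, 3 lymphoid, and 3 stromal, epithelial, and endothelial genes tested, 0 were called by edgeR's quasi-likelihood test. In that test 3 had an unadjusted p-value under 0.05, against 23.3% of all tested genes. DESeq2 called 2 of these 11 genes and limma-voom 0, against 1357 and 634 of all 14391 tested genes. *ITGA2B*, the platelet integrin chain that is also found on early progenitors, was at 120 and 83.1 CPM in control and 193, 239, and 208 CPM in knockout pools (log2-fold change 1.07, adjusted p = 0.0799). *GP6*, the platelet collagen receptor, had a log2-fold change of −1.12 (adjusted p = 0.186). *CD79A*, a chain of the B cell receptor complex, had 20 and 8 counts in control and 4, 5, and 4 counts in knockout pools, with a log2-fold change of −2.59 and an adjusted p-value of 0.0506. The B cell gene *CD79B* (−0.44) and the endothelial receptor *TEK* (−0.33) had no adjusted p-value under 0.05 either, and *TEK* turned positive without sgCtrl 2. The part of these lineage lists in the values of the panel was not tested.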

How the data were processed

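RNA-seq counts of 5 TF-1 libraries were analysed. The authors made QuantSeq 3′ FWD libraries, trimmed adapters with BBDuk, aligned single-end reads to GRCh38 with HISAT2 2.1.0, kept uniquely mapped reads (SAMtools 1.10), and deposited raw counts per Ensembl gene without normalization. The counting program, the annotation, and the use of strand are not given in the sources used here. Reads that map to several places were lost, which lowers genes with near-identical copies.

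Groups were assigned by sample titles. Here, genes were filtered with filterByExpr (minimum count 10) and tested with edgeR 4.0.16 in R 4.3.3 (TMM, quasi-likelihood test, condition alone, all 5 libraries), with Benjamini-Hochberg adjustment over 14391 genes. CPM use the fit's library sizes and TMM factors. DESeq2 1.42.0, limma-voom (limma 3.58.1), other scalings and filters, thinned counts, a replicate block, and each pool left out were alternatives. The test was checked on simulated counts. Ratios within libraries used a pseudocount of 0.5. Symbols came from a table of gene IDs and names (27211 of 27328 IDs matched), and positions from GENCODE 44 on GRCh38. Context genes were named if called, if they were direct partners or relatives of a marker, or, in lists with no call, if most abundant, and others were named after their values were seen. Of the genes that this rule names, 1 is not reported here. The members and lists were chosen with earlier results of these data known.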

Additional observations from a re-analysis of the deposited data

How the results depend on the processing

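No marker was called in any of the 14 alternatives. DESeq2 called 1357 genes and no filter on low counts 1374, against 745, and 13 and 11 genes of the context lists, against 5. Leaving out 1 pool gave 111 (without sgMTSS1_1) to 1349 genes (without sgCtrl 1), and 0 to 9 context genes. All of these fits have fewer samples. Between 13303 and 13419 genes were tested without a knockout pool, and 15458 and 15661 without sgCtrl 1 and sgCtrl 2. The cause of the differing counts was not tested. Library size alone moved the median log2-fold change of all genes to −0.17, and no filter to 0.11.

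With library size alone, *SPN* was at −0.053 and *MSN* at −0.072. With no filter, *CD33* was at 0.058 and *RDX* at 0.11, and *RDX* was at 0.035 with at least 10 counts in every library. With 1 pool left out, log2-fold changes ranged from −0.15 to 0.010 for *CD33*, −1.84 to 0.42 for *CD36*, −0.17 to 0.35 for *SPN*, −0.15 to 0.35 for *MSN*, −0.11 to 0.082 for *RDX*, and −0.79 to 0.41 for *TEK*. The difference in the *CD38* to *CD34* ratio was 0.047 after thinning, and −0.51 to 0.30 with 1 pool left out. The cause was not tested.

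With the replicate block, *CD34* was at 1.16, *CD38* at 1.09, and *ACVRL1* at −0.12, 1094 genes were called, and no call among the markers changed, but *FCGR2A* was no longer called (adjusted p = 0.0563). With thinning and block, *FCGR2A* (0.186) and *CD81* (0.0535) were not called. *TGFBR2* was then at −0.0076. Samples share only a number: the difference between pools 1 and 2 correlated across genes between groups with r = 0.17. Against knockout pools with other numbers, the same control difference gave r = 0.19 (sgMTSS1_1 minus sgMTSS1_3) and 0.0081 (sgMTSS1_2 minus sgMTSS1_3). Genes with few counts, such as *BST1* and *SIRPA*, are limited by depth in the control libraries.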
